A study of Mus musculus with 2 samples.

Results

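Expression of 10 imprinted genes, of the 55415 features in the deposited count tables, was examined in single mouse embryonic stem cells (mESC), which are pluripotent cells kept in culture. The genes were taken by symbol: H19, Igf2, Igf2r, Peg10, Peg3, Meg3, Rian, Mirg, Snrpn and Mest, and each symbol matched 1 feature. The labels give a MERVL GFP positive and a MERVL GFP negative library of these cells, with 1 library per group and no treatment, time, strain or clone named. MERVL is an endogenous retrovirus that is active in the 2-cell embryo, and a GFP reporter driven by it marks stem cells that transcribe 2-cell-stage genes such as the Zscan4 family. Since each group is 1 library, batch and reporter state cannot be told apart, and no difference between the libraries has a replicate check or a p-value.

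Imprinted genes are transcribed mainly from the maternal or mainly from the paternal copy, according to DNA methylation laid down in the germ line at imprinting control regions. The 10 genes belong to loci that regulate fetal and placental growth, and cultured embryonic stem cells are known for variable imprints at these loci. The counts do not separate the parental alleles, so they give the level of a transcript and not its imprint.

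The genes lie in separate imprinted clusters, and positions are given for GRCm38. H19, a maternally expressed non-coding RNA at chr7:142575529-142578143 on the minus strand, neighbours Igf2 at chr7:142650766-142666816, the paternally expressed insulin-like growth factor. Igf2r, at chr17:12682406-12769664, encodes the maternally expressed receptor that carries IGF2 to lysosomes. Meg3 (chr12:109541001-109571726), Rian (chr12:109603940-109661716) and Mirg (chr12:109729764-109749460) are maternally expressed non-coding RNAs on the plus strand of the Dlk1-Dio3 locus, where Rian hosts small nucleolar RNAs and Mirg hosts microRNAs. Peg10 (chr6:4747306-4760517), Mest (chr6:30723547-30748465), Peg3 (chr7:6703892-6730431) and Snrpn (chr7:59982495-60140219) are paternally expressed and encode a retrotransposon-derived protein needed in the placenta, a hydrolase-like protein, a zinc finger protein and a spliceosome protein. Igf2r overlaps Airn, and Mest overlaps Copg2, on the opposite strand; whether the counting used strand is not given in the sources used here, so reads of these pairs may be shared. Snrpn overlaps Snurf on the same strand, which strand cannot separate, and Snurf is listed at 0 UMIs (unique molecular identifiers) in both libraries.

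Promoter windows in the RefSeq table (GRCm38.p6, 250 bases before to 50 after a transcript start) were found for 8 of the 10 genes, in 17 windows; H19 and Peg10 had no entry. They were searched on both strands for TGCCGC, the hexamer recognised by the imprint-protecting protein ZFP57, and for GCCATNTT, a core motif of YY1. The hexamer was in 5 of the 17 windows (29.4%), against 11.6% of 32851 windows in the table; these belong to Igf2, Meg3, Snrpn and Mest, and the 2 Mest windows among them overlap. GCCATNTT was in none of the 17, against 6.05% of windows. The 250 bases before a start of Meg3 and of Mest are shown as stretches that hold the hexamer. Capitals mark the hexamer, here read on the other strand as GCGGCA.
Meg3, chr12:109540746-109540995, plus strand: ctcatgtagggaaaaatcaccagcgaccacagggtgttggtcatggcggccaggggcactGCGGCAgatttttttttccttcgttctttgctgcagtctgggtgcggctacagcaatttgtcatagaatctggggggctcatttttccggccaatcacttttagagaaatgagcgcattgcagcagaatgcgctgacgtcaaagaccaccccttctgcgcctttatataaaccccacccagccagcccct
Mest, chr6:30737800-30738049, plus strand: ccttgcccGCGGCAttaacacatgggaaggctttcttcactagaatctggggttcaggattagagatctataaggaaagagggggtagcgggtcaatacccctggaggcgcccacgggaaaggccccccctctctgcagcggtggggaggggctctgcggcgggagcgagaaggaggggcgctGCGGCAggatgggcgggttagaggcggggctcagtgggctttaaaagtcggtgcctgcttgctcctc
Meg3 held 1 copy and Mest 2 copies in these stretches, and the match is a description of the letters only.

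H19 is also the precursor of miR-675, whose mature arms lie within it. Seeds (bases 2 to 8) are in capitals, sequences are from RefSeq (GRCm38.p6), and the microRNAs themselves were not measured.
miR-675-5p, chr7:142577112-142577133: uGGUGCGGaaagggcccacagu
miR-675-3p, chr7:142577078-142577099: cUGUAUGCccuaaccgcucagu

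After a filter on cells, 4596 cells with 138303336 UMIs were kept in the positive library and 3832 cells with 156406894 UMIs in the negative library, with medians of 29554.5 and 39099.5 UMIs per cell and 2.56% and 1.60% mitochondrial UMIs; the part of these in the differences between the libraries was not tested. GFP had 28299 and 71 UMIs, in the direction of the labels, and the libraries shared 3 barcodes. The 7 embryonic stem cell markers summed to 3206 and 3571 CPM (UMIs per 1000000 UMIs), the 12 primitive endoderm markers to 872 and 356 CPM, the 8 trophoblast markers to 21.1 and 10.9 CPM, and the 10 fibroblast markers, which feeder cells would carry, to 17.7 and 4.44 CPM. Of the fibroblast markers, Thy1 had 1285 and 336 UMIs, Fbn1 494 and 83 and Col1a1 249 and 132, while Col3a1 had 6 and 0 and Postn 3 and 0. In the following, a level is the CPM of UMIs summed over cells, a range in parentheses is an exact 95% interval that covers counting error only, and "2-fold" means a ratio of CPM + 1 of at least 2 among genes with a mean of at least 1 CPM; this is a rule of size and not a test.

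Between the libraries, H19 was higher in the positive library. H19 was at 21.2 CPM (2927 UMIs) in the positive and 7.73 CPM (1209 UMIs) in the negative library, which gives a ratio of 2.74 (2.56 to 2.93). It was the 1 member of the 10 past 2-fold, where 8.13% of the 13869 genes past the minimum were higher by that rule and 0.822% were lower. The log2 ratio of CPM + 1 for H19 was 1.34 over all cells, and 1.07, just past the rule, under both TMM and median-of-ratios scaling. It was 1.35 without cells with 3 or more fibroblast UMIs and 1.43 without cells with 5 or more UMIs of the keratins Krt8 and Krt18. Among cells with no UMI of Zscan4, Gata6, Dab2, Krt8 or Krt18 it was 0.88, under the rule, at a CPM ratio of 2.17 (1.83 to 2.58); at such low levels the added 1 CPM lowers the value. Its growth factor neighbour Igf2 was near the limit of detection, with 27 UMIs (0.195 CPM) and 17 UMIs (0.109 CPM), and it did not reach the minimum for a call. The receptor gene Igf2r was at 34.7 and 28.9 CPM, a ratio of 1.2 (1.15 to 1.25).

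Of the paternally expressed genes, Peg3, Mest and Peg10 were higher in the positive library by less than 2-fold, and Snrpn was so under CPM but not under TMM scaling. Peg3 was at 32.7 CPM in the positive and 20.3 CPM in the negative library, a ratio of 1.61 (1.54 to 1.69). Mest was at 27.6 and 18.4 CPM, a ratio of 1.5 (1.43 to 1.57), and Peg10 at 90.1 and 62.4 CPM, a ratio of 1.44 (1.41 to 1.48). Snrpn was at 108 and 97.6 CPM, a ratio of 1.11 (1.08 to 1.13).

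The 3 maternally expressed RNAs of the Dlk1-Dio3 locus were lower in the positive library. Meg3 was at 71.5 CPM in the positive and 93.0 CPM in the negative library, a ratio of 0.768 (0.749 to 0.788). Rian was at 27.4 and 31.7 CPM, a ratio of 0.864 (0.828 to 0.902), and Mirg at 4.27 and 4.86 CPM, a ratio of 0.878 (0.787 to 0.979). The median log2 ratio of the 9 members past the minimum was 0.26, beside 0.17 for all genes past it. TMM scaling moved that median of all genes from 0.17 to -0.09 and the share of 2-fold calls that were higher from 90.8% to 69.4%. Under TMM scaling Igf2r (-0.03) and Snrpn (-0.15) changed sign, as they did under median-of-ratios scaling, while the other members kept theirs.

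**Figure D1:**
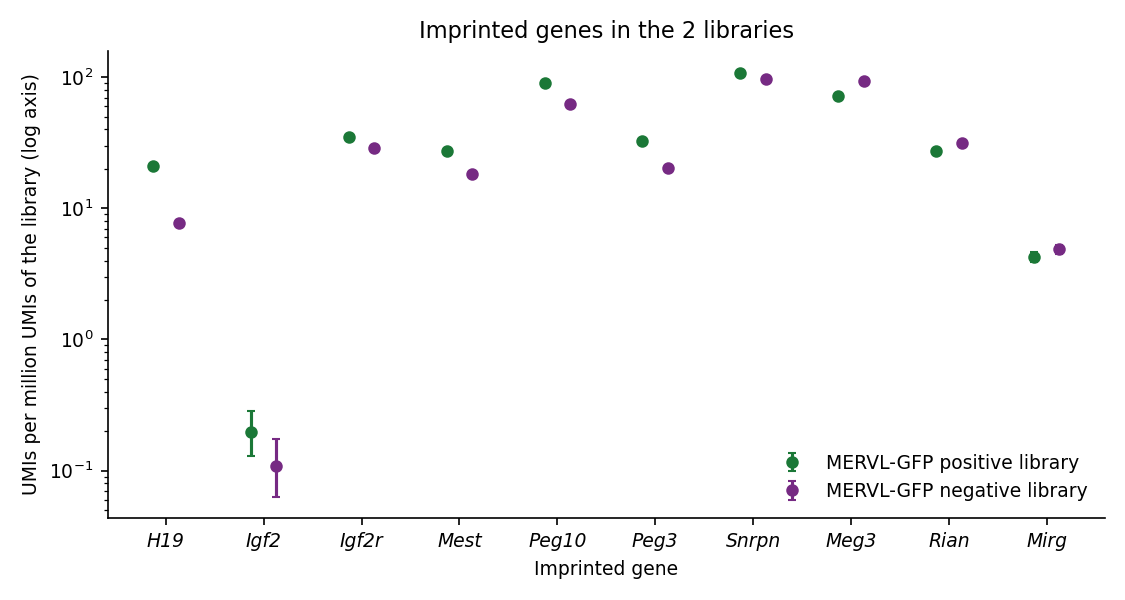
Level of each imprinted gene in CPM (log axis) in the MERVL-GFP positive (green) and negative (purple) libraries, with exact Poisson intervals as bars, many of them narrower than the points. H19 is at 21.2 and 7.73 and Meg3 at 71.5 and 93.0; levels of different genes are not per length and are not compared with each other.

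To compare detection, each cell was thinned at random to 10000 UMIs, which left out 194 shallower cells of the positive and 8 of the negative library. H19 then had a UMI in 10.9% (9.98% to 11.8%) of 4402 cells of the positive and 4.08% (3.47% to 4.76%) of 3824 cells of the negative library, and at full depth in 20.8% and 11%. Mest was detected in 23.0% and 16% of thinned cells, Peg3 in 24.6% and 16.8%, Peg10 in 47.4% and 38.5%, Snrpn in 60.7% and 54.9%, and Igf2r in 29.0% and 25.4%. For Meg3 the order was turned, with 39.3% in the positive and 48.1% in the negative library, as for Rian (21.2% and 24.4%) and Mirg (3.91% and 4.76%). The share was higher in the positive library for 7 of the 10 genes, Igf2 included at 0.204% and 0.0785% (9 and 3 cells). Without thinning this held for 4 of them, with the negative library being the deeper. The same count over all genes is not given. The median log2 ratio of level of all genes was 0.17 towards the positive library, so the 7 are not read as particular to imprinted genes. No class of cells that should lack these genes was identified, so the share that free RNA alone would give was not measured.

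H19 was also unevenly spread over cells. Before thinning its highest cell held 111 UMIs (positive) and 72 UMIs (negative), and 50% of its UMIs came from 82 of 4596 cells (1.78%) and from 26 of 3832 cells (0.678%). For Igf2r the same share of UMIs came from 17.0% and 18.1% of cells. The counting intervals of H19 do not hold this spread between cells. A Poisson count with H19's mean would be detected in 21.0% and 8.05% of thinned cells, against the 10.9% and 4.08% observed.

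The Fano factor, the variance over the mean of thinned UMIs, is 1 for a Poisson count. H19 had the highest value of the members in both libraries, 6.59 (positive) and 6.52 (negative), where genes with a mean within 1.5 times of its own had medians of 1.07 and 1.03. Of those genes, 0.322% of 2483 and 0.0430% of 2326 had a higher value. Peg10 had Fano factors of 2.94 and 3.58, Peg3 2.11 and 2.39, Meg3 2.03 and 2.35, and Snrpn 1.74 and 1.81. Rian (1.41 and 1.39) and Mest (1.22 and 1.21) were nearer to their medians of like genes, which lay between 1.04 and 1.08. Igf2r (1.04 and 1.11) and Mirg (1.02 and 1.17) were below the median of like genes in the positive library and above it in the negative library, and Igf2 was too rare to be read, so 7 of the 10 genes were above it in both.

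Meg3 was missing from more cells than its mean would give. At full depth 62.1% (positive) and 77.3% (negative) of cells had a Meg3 UMI, against 84.0% and 95.9% for Poisson counts at each cell's depth. At 10000 UMIs per cell, 79 and 116 cells of the libraries held 5 or more Meg3 UMIs, and 5 and 8 cells held 10 or more. In the cells with 10 or more, mean Rian UMIs were 2.00 and 1.88, beside 0.280 and 0.324 in the other cells. Snrpn, of another chromosome, was also higher there, at 2.2 and 3.0 beside 1.14 and 0.975. Peg10 and Peg3 were higher in these cells of both libraries too, while H19 and Mest were lower. A higher mean was thus not limited to the Dlk1-Dio3 locus, and these means rest on 5 and 8 cells.

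**Figure D2:**
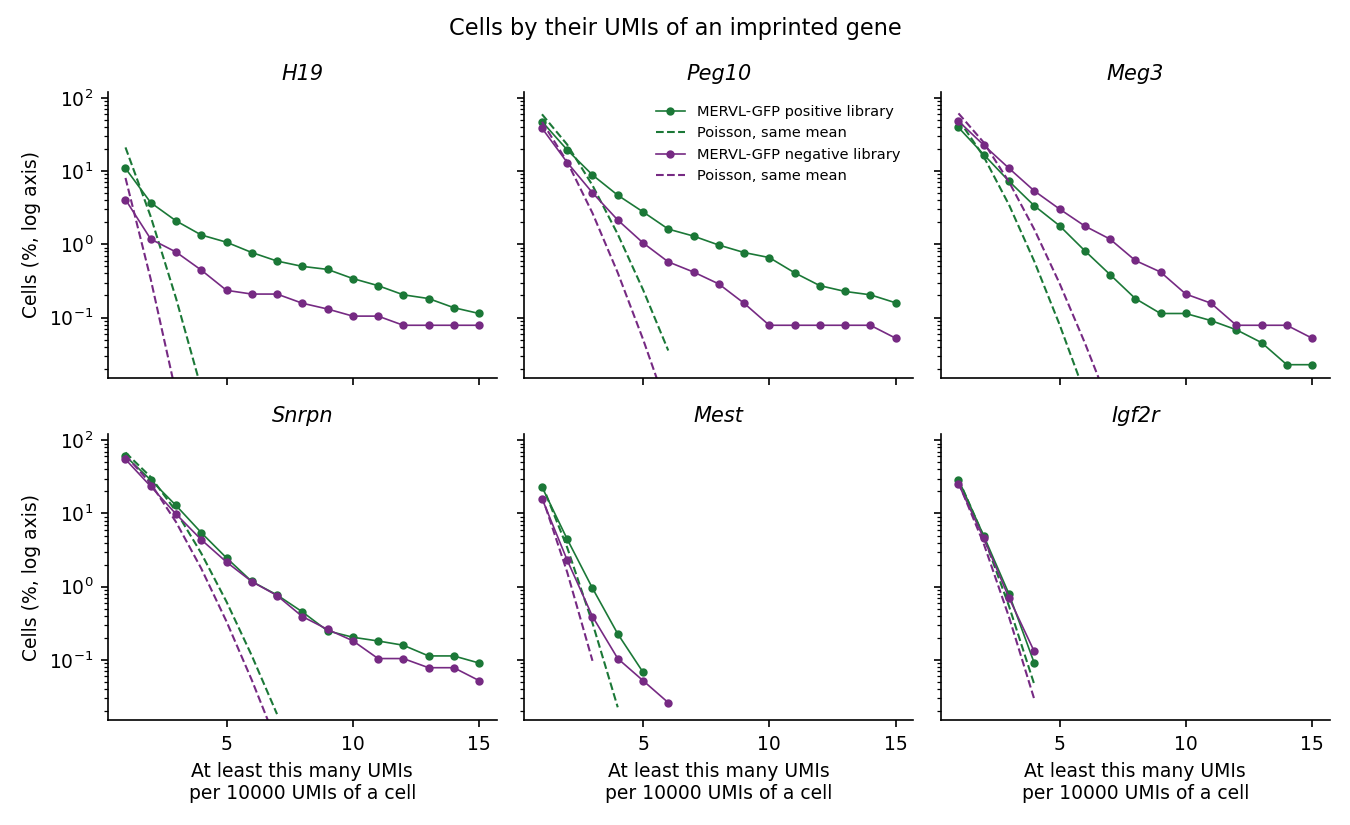
Percent of cells (log axis) with at least a given number of UMIs of H19, Peg10, Meg3, Snrpn, Mest and Igf2r after thinning each cell to 10000 UMIs (points and solid lines, positive library green, negative library purple), with a Poisson count of the same mean (dashed). H19, Peg10, Meg3 and Snrpn have tails beyond 10 UMIs, while Mest reaches 5 and 6 UMIs and Igf2r 4.

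The relation to the 2-cell-like state was described within the positive library, by the thinned UMIs of 6 Zscan4 genes, which mark that state. Cells with 5 or more such UMIs (861, Zscan4-high) were set against cells with 0 (1936, Zscan4-zero); 325 cells lay within 1 UMI of this cut, which divides a range of levels and does not define a cell type. Zscan4-high cells were shallower, with a median of 22469 UMIs against 32867, and had 3.0% against 2.35% mitochondrial UMIs. The 2C-like markers, which include the 6 Zscan4 genes used for the classes, summed to 100.5 CPM in Zscan4-zero cells and 5344 CPM in those with 20 or more Zscan4 UMIs, and the embryonic stem cell markers to 3670 and 1467 CPM. The part of these in the differences was not tested. Only 2 of 3824 negative-library cells were Zscan4-high, so no comparison was made there. None of the 10 genes was past 2-fold, where 7.46% of 14340 genes were higher and 2.91% lower.

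The zinc finger gene Peg3, the spliceosome gene Snrpn and Mest were higher in Zscan4-high cells. Peg3 was at 41.0 CPM in Zscan4-high and 30.8 CPM in Zscan4-zero cells, a ratio of 1.33 (1.23 to 1.44). Its level was 30.8, 31.6, 36.5 and 56.0 CPM in cells with 0, 1 to 4, 5 to 19 and 20 or more Zscan4 UMIs. Snrpn was at 132 and 100.4 CPM, a ratio of 1.31 (1.25 to 1.37), and Mest at 32.1 and 26.1 CPM, a ratio of 1.23 (1.12 to 1.35). Both stepped up through the 4 classes, to 140 CPM for Snrpn and 36.2 CPM for Mest in the 244 cells with 20 or more Zscan4 UMIs.

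The Dlk1-Dio3 RNAs were lower in Zscan4-high cells. Meg3 was at 58.8 CPM in Zscan4-high and 76.9 CPM in Zscan4-zero cells, a ratio of 0.765 (0.718 to 0.814). Rian was at 24.1 and 29.2 CPM, a ratio of 0.824 (0.745 to 0.910), and Mirg at 3.69 and 4.58 CPM, with a ratio whose interval reached 1 (0.806, 0.619 to 1.04). By class Meg3 was at 76.9, 68.4, 57.8 and 62.4 CPM and Rian at 29.2, 25.7, 23.9 and 24.8 CPM, so neither fell further in the highest class, where Rian was detected in 23.4% of thinned cells against 22.4% at 0. Igf2r was at 31.6 and 34.7 CPM overall; by class it was 34.7, 34.5 and 34.1 CPM up to 19 Zscan4 UMIs and 23.4 CPM (19.3 to 28.1) at 20 or more. Peg10 was at 87.4 and 94.1 CPM, a ratio of 0.929 (0.881 to 0.979). H19 was at 22.9 and 21.5 CPM, a ratio of 1.06 whose interval reached 1 (0.957 to 1.18). Its log2 ratio of CPM + 1, 0.09 here, ran from -0.07 to 0.45 over the alternative settings. The median log2 ratio of the 9 members past the minimum was -0.11, beside -0.08 for all genes.

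**Figure D3:**
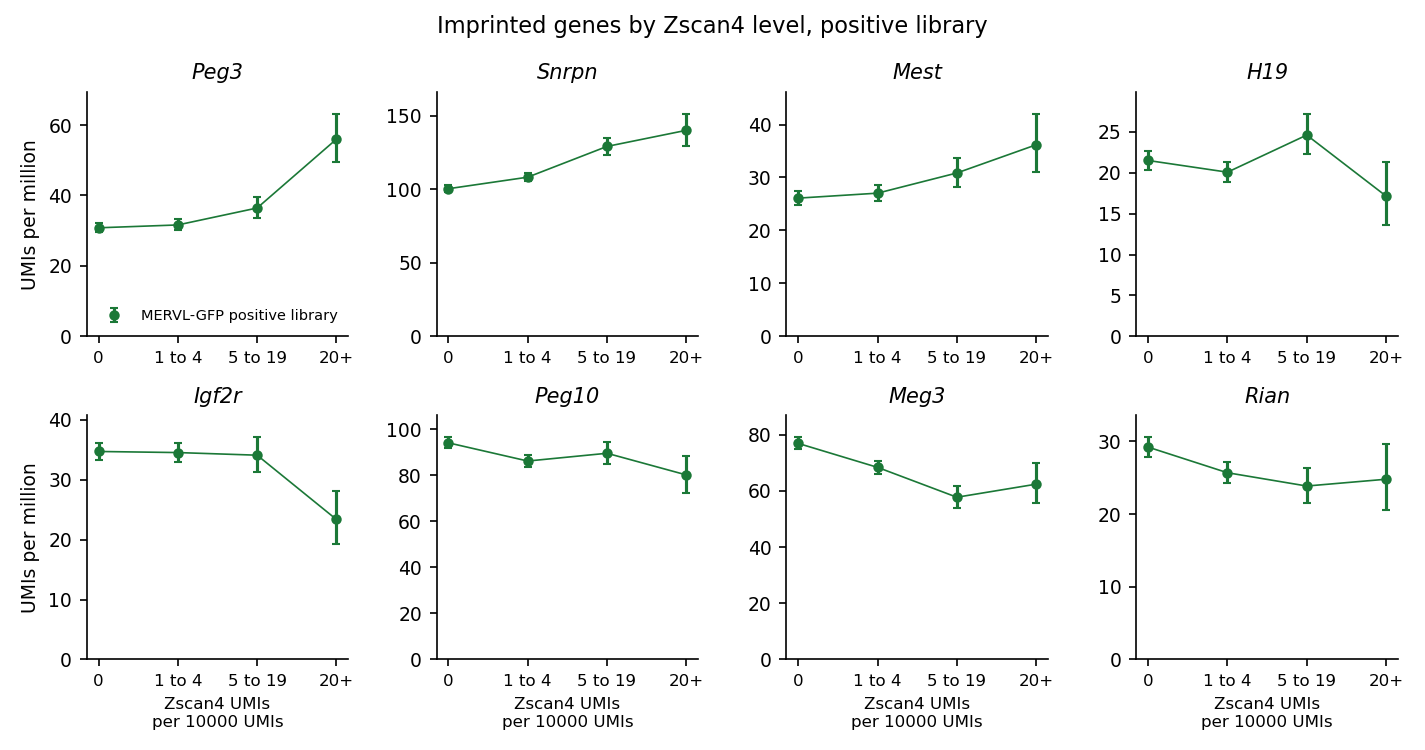
Level in CPM of 8 imprinted genes in positive-library cells with 0, 1 to 4, 5 to 19 and 20 or more (20+) Zscan4 UMIs per 10000 UMIs, with exact Poisson intervals; each vertical axis starts at 0. Peg3, Snrpn and Mest are highest in the 20+ class (56.0, 140 and 36.2), where Igf2r is lowest (23.4).

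Gata6 and Dab2 are genes of the primitive endoderm, an extraembryonic lineage of the blastocyst, and cells were classed by their summed thinned UMIs in the same way. In the positive library 402 cells had 5 or more and 3249 had 0, with medians of 30610 and 30612 UMIs; in the negative library these were 190 and 3395 cells, with 38863 and 39233 UMIs. Between 4 and 6 such UMIs lay 114 and 63 cells. The embryonic stem cell markers summed to 809 CPM and the primitive endoderm markers, with Gata6 and Dab2 among them, to 4881 CPM in positive-library cells with 5 to 19 UMIs, against 3644 and 290.1 CPM in those with 0.

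H19 was higher in Gata6/Dab2-high cells of both libraries. Its level in the positive library was 65.5 CPM in high and 11.3 CPM in zero cells, a ratio of 5.81 (5.31 to 6.36). Negative-library cells had 51.9 and 4.62 CPM, a ratio of 11.2 (9.88 to 12.7). H19 was the 1 member past 2-fold in either library; 5.38% of 14014 genes were higher and 7.93% lower by that rule in the positive library, and 6.77% of 13126 higher and 4.69% lower in the negative library. The share of thinned cells with an H19 UMI was 7.85% and 29.6% in positive-library cells with 0 and with 5 to 19 Gata6/Dab2 UMIs, and 2.53% and 29.7% in those of the negative library. H19 did not climb further in the highest class: at 20 or more Gata6/Dab2 UMIs it was at 35.5 CPM (71 cells) and 29.9 CPM (18 cells), against 71.7 and 53.8 CPM at 5 to 19.

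Igf2 had few UMIs in these classes. There were 10 in the 190 high cells of the negative library (1.31 CPM) and 6 in its 3395 zero cells (0.0433 CPM), a ratio of 30.2 (9.95 to 101). The positive library held 5 in high and 14 in zero cells, with a ratio of 2.86 whose interval reached 1 (0.805 to 8.39). Over each whole library, 25 positive-library cells held an Igf2 UMI and 11 of them (44.0%) also an H19 UMI, against 20.8% of all cells. Of 15 such negative-library cells, 7 (46.7%) held H19, against 11% of all cells, and 9 of the 15 were Gata6/Dab2-high. These shares are at full depth and not at equal depth; after thinning, 1 of 9 positive-library cells with Igf2 held H19 (11.1%), against 10.9% of the cells without, and 1 of 3 in the negative library.

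Mest and Peg3 were lower in Gata6/Dab2-high cells of both libraries. Mest was at 13.9 CPM in high and 28.2 CPM in zero cells of the positive library, a ratio of 0.492 (0.421 to 0.573) that is -0.97 on the log2 scale of CPM + 1, just inside the 2-fold rule. Negative-library cells had Mest at 11.2 and 18.4 CPM, a ratio of 0.609 (0.486 to 0.756). Its levels at 1 to 4 Gata6/Dab2 UMIs, 31.2 and 22.9 CPM, were not below those at 0. Peg3 was at 24.3 and 32.1 CPM in the positive library, a ratio of 0.755 (0.670 to 0.849), and at 16.5 and 20.4 CPM in the negative library, a ratio of 0.808 (0.671 to 0.967). At 1 to 4 Gata6/Dab2 UMIs Peg3 was at 40.1 CPM (37.5 to 42.9) and 22.4 CPM, not below its levels at 0, and with classes cut at 3 UMIs its log2 ratio in the positive library was -0.03 in place of -0.39.

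For the other genes the ratios lay between 0.834 and 1.31 in both libraries. Peg10 was at 81.8 and 85.3 CPM in high and zero cells of the positive library, with an interval of the ratio that reached 1 (0.898 to 1.02), and at 77.5 and 61.2 CPM in the negative library (1.27, 1.16 to 1.38). Snrpn was at 109 and 106 CPM (positive) and at 86.8 and 98.2 CPM (negative). Igf2r, whose antisense neighbour is Airn, was at 36.8 and 33.2 CPM and at 32.0 and 28.7 CPM. Meg3 was at 66.7 and 72.0 CPM in the positive library (0.927, 0.863 to 0.995) and at 107 and 92.1 CPM in the negative library (1.16, 1.08 to 1.25). Rian was at 24.2 and 27.5 CPM (0.881, 0.780 to 0.991) and at 34.5 and 31.6 CPM (1.09, 0.959 to 1.23), and Mirg at 3.61 and 4.33 CPM and at 6.27 and 4.77 CPM, with intervals that reached 1. The median log2 ratio of the 9 members past the minimum was -0.11 in the positive and 0.15 in the negative library, beside -0.10 and 0.02 for all genes.

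**Figure D4:**
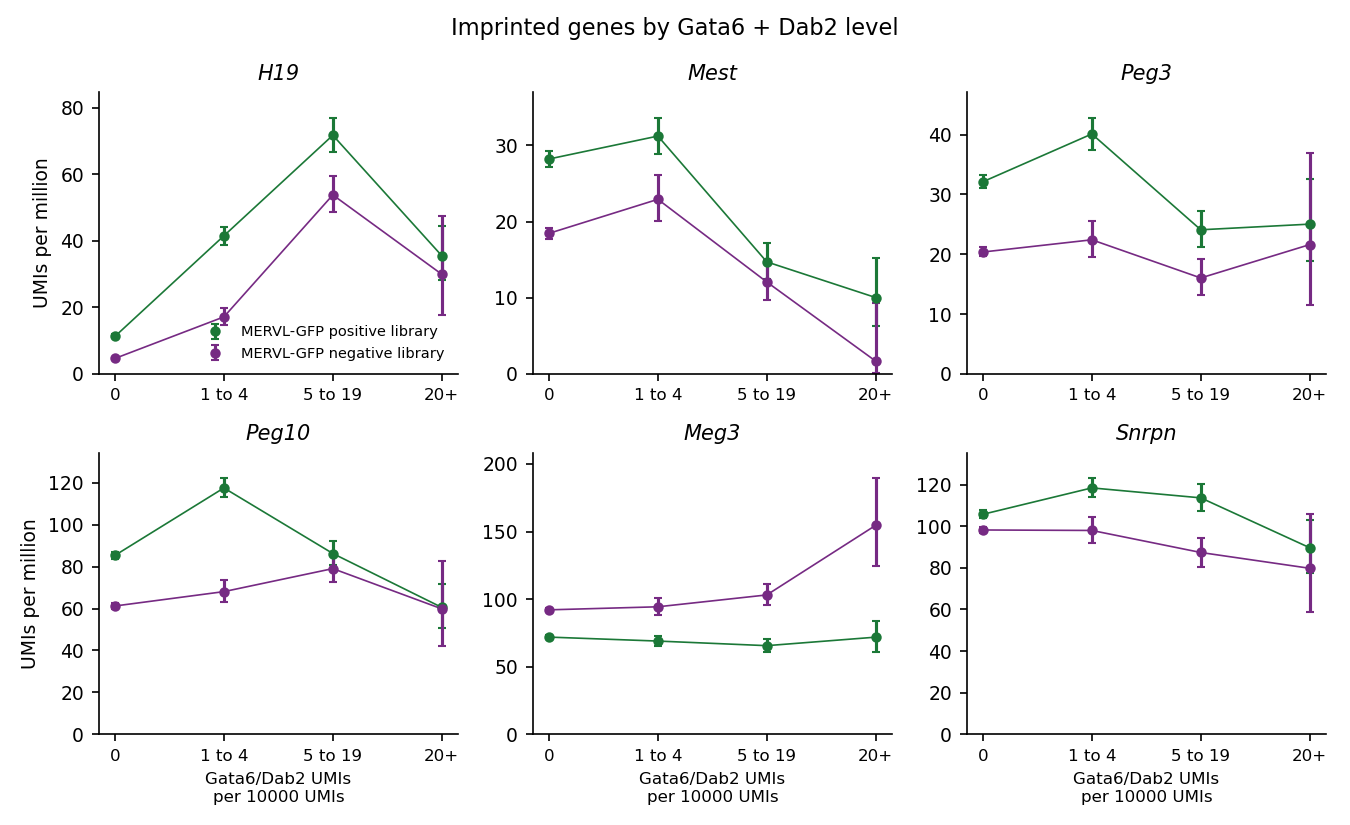
Level in CPM of 6 imprinted genes in cells with 0, 1 to 4, 5 to 19 and 20 or more (20+) Gata6 and Dab2 UMIs per 10000 UMIs, in the positive (green) and negative (purple) libraries, with exact Poisson intervals; each vertical axis starts at 0. H19 peaks in the 5 to 19 class (71.7 and 53.8), and Mest in the 20+ class is at 10.01 and 1.66, the latter from 1 UMI in 18 cells (0.0421 to 9.26).

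Zscan4 and Gata6/Dab2 were also crossed within the positive library. H19 was at 12 CPM in 1432 cells at 0 for both, at 16.7 CPM in 609 cells high for Zscan4 alone, at 60.9 CPM in 224 cells high for Gata6/Dab2 alone and at 45.7 CPM in 44 cells high for both. Mest in the same order was at 27.6, 32.4, 13.4 and 11 CPM, and Peg3 at 29.7, 41.5, 23.4 and 22.8 CPM. In each case the cells high for both were nearer to the Gata6/Dab2-high than to the Zscan4-high cells. Those levels come from only 44 cells and are given without intervals. Snrpn was the exception among the 4 genes followed here, at 99.0, 129, 97.5 and 159 CPM.

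**Figure D5:**
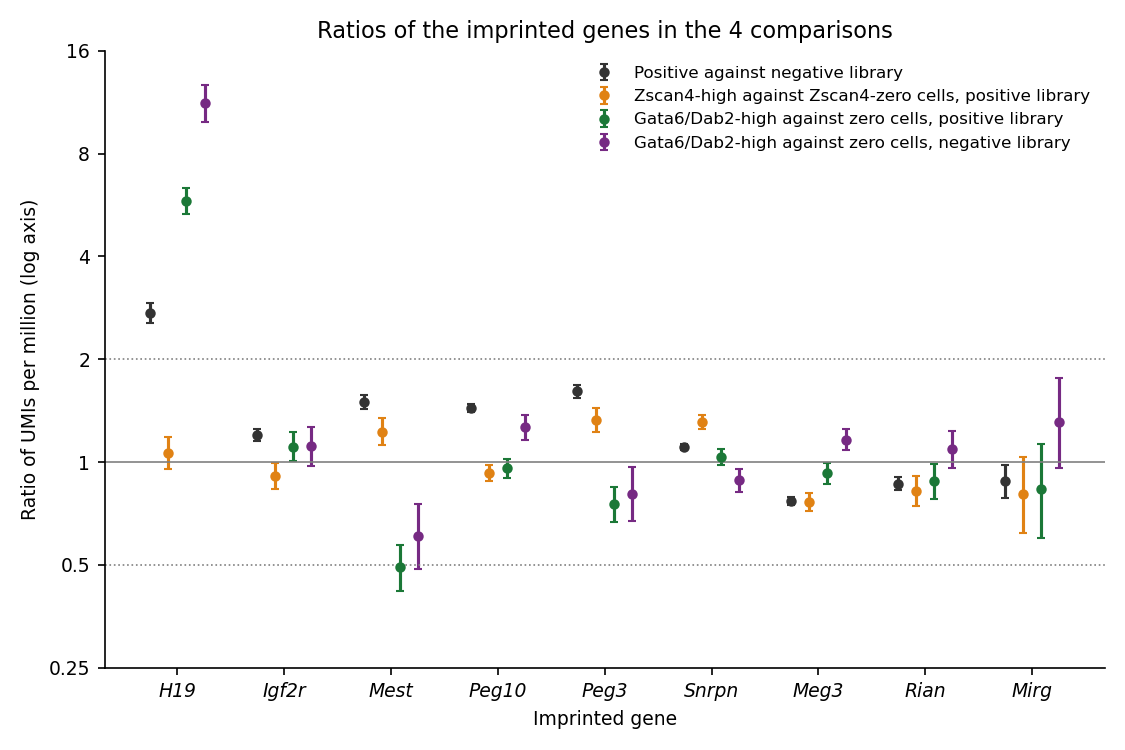
Ratio of CPM (log axis) of 9 imprinted genes in the 4 comparisons, with exact conditional intervals; dotted lines mark ratios of 0.5 and 2, and Igf2 is left out for its few UMIs. H19 lies at 5.81 and 11.2 between Gata6/Dab2-high and zero cells, and Mest at 0.492 and 0.609.

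Cells were also classed by keratin transcripts, which part of the cells with most H19 or Peg10 UMIs carried; this split was chosen after those values were seen. Keratins 8 and 18 are filament proteins of simple epithelia, in the embryo of trophectoderm and extraembryonic endoderm. With classes cut in the same way on Krt8 and Krt18 UMIs, 75 positive-library and 10 negative-library cells had 5 or more (keratin-high), and 3439 and 3396 had 0. The 2-fold rule was not applied to so few cells, and values are given with their intervals.

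H19, Peg10 and Peg3 were far higher in keratin-high cells of both libraries. H19 was at 201 CPM in keratin-high and 12.3 CPM in keratin-zero cells of the positive library (16.3-fold, 14.6 to 18.1) and at 798 and 5.13 CPM in the negative library (156-fold, 135 to 180). Peg10 was at 444 and 79.5 CPM (5.59-fold, 5.23 to 5.96) and at 1286 and 59.9 CPM (21.5-fold, 19.4 to 23.7). Peg3 was at 145 and 30.1 CPM (4.82-fold, 4.30 to 5.40) and at 559 and 19 CPM (29.4-fold, 25.2 to 34.2). Igf2 had 6 UMIs in keratin-high and 15 in keratin-zero cells of the positive library, and 3 and 11 in those of the negative library. Meg3 was at 60.3 and 72.5 CPM (0.832, 0.698 to 0.984) and at 123 and 93.6 CPM, where the interval reached 1 (1.31, 0.937 to 1.79) and the direction turned among cells with no Gata6/Dab2 UMI (log2 ratio -1.20). The intervals of Igf2r, Rian, Mirg, Snrpn and Mest reached 1 in both libraries.

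Few cells carry these values. Of the 10 keratin-high cells of the negative library, 2 had 20 or more keratin UMIs, and the other 8 had H19 at 524 CPM, Peg10 at 693 CPM and Peg3 at 418 CPM. In the positive library, the 20 cells with 20 or more keratin UMIs had H19 at 520.0 CPM and Peg10 at 987 CPM, against 91.9 and 259 CPM in the 55 cells with 5 to 19. Of the cells with 10 or more thinned H19 UMIs, 6 of 15 and 3 of 4 were keratin-high, and of those with 10 or more Peg10 UMIs 14 of 29 and 3 of 3.

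The marker lists moved with the keratins. The primitive endoderm list summed to 646 CPM in keratin-zero cells, 2890 CPM in cells with 5 to 19 keratin UMIs and 1141 CPM in those with 20 or more in the positive library, and to 291, 3167 and 208 CPM in the negative library. The class with 5 to 19 held 55 of the 75 and 8 of the 10 keratin-high cells. From keratin-zero cells to those with 20 or more keratin UMIs, the trophoblast list summed to 19.1 and 118 CPM in the positive and 10.1 and 982 CPM in the negative library, with Elf5 at 0 in the highest class of both and Cdx2, Tfap2a and Eomes also at 0 in that of the negative library. The embryonic stem cell list summed to 3480 and 459 CPM and to 3607 and 359 CPM. Their part in the levels of H19, Peg10 and Peg3 was not tested.

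H19 differed by Gata6/Dab2 level also among cells without a keratin UMI. There, H19 was at 53.3 CPM in 195 Gata6/Dab2-high and 6.86 CPM in 2707 zero cells of the positive library, and at 51.1 CPM in 128 and 2.53 CPM in 3061 cells of the negative library. Peg10 in those high cells was at 63.7 and 85.6 CPM, against 77.9 and 58.4 CPM in the zero cells. Cells high for Gata6/Dab2 or for keratin were 10.3% of the thinned cells of the positive library and held 43.3% of its H19 UMIs, and for the negative library these shares were 5.15% and 54.3%. They held 16.1% and 10.3% of the Peg10 UMIs and 9.69% and 5.74% of the Meg3 UMIs.

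In cells with no UMI of Zscan4, Gata6, Dab2, Krt8 or Krt18, H19 remained higher in the positive library. H19 was at 5.49 CPM in 1226 cells (positive) and 2.52 CPM in 3053 cells (negative), a ratio of 2.17 (1.83 to 2.58) against 2.74 over all cells. On the scale of CPM + 1 the log2 ratio was 0.88, which the 2-fold rule does not call, and 630 of 13586 genes were higher by that rule there. Its Fano factors were 1.67 and 1.33. Peg10 was at 77.5 and 58.3 CPM with Fano factors of 1.74 and 1.65, and Peg3 at 27.2 and 19.1 CPM with 1.58 and 1.32. The Fano factor of Meg3 was 2.18 and 2.33 in these cells, close to its value over all cells, and that of Snrpn 1.43 and 1.74.

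Within the Dlk1-Dio3 locus, cells with more Meg3 UMIs also more often held Rian and Mirg. Rian had a UMI in 14.9% of positive-library cells without a Meg3 UMI, in 27.6% of those with 1 or 2 and in 45.3% (39.8% to 50.9%) of those with 3 or more. The negative library gave 16%, 28.7% and 49.9%. Mirg was detected in 2.96%, 4.18% and 10.6% of the same positive-library classes and in 3.07%, 5.27% and 11% of the negative-library classes. Snrpn, of another chromosome, was detected in 61.5%, 59.7% and 57.8% of these positive-library classes and in 53.3%, 54.9% and 62.1% of the negative-library classes. Igf2r, also of another chromosome, was detected in 28.6%, 28.9% and 33.1% of the positive-library and in 24.1%, 25.0% and 32.6% of the negative-library classes. H19 and Igf2 were too rarely detected together after thinning to be compared, with 1 cell in each library.

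Over cells, the correlation of log thinned UMIs was 0.257 (4402 cells) and 0.288 (3824 cells) for Meg3 and Rian, as a description of cells that share a library. It was lower for Meg3 and Mirg (0.102 and 0.127) and for Rian and Mirg (0.087 and 0.11), within the range of the other pairs. The 42 pairs of members not both among Meg3, Rian and Mirg lay between -0.04 and 0.11 in the positive and between -0.03 and 0.14 in the negative library. Among 8674 genes detected in at least 5% of cells of both libraries, the gene with the highest mean correlation was Rian for Meg3 and Meg3 for Rian. The gene most like Snrpn was Snhg14 (0.129 and 0.098), the long non-coding RNA of the same locus. The leading genes of the other members were Malat1 for Igf2r (0.182 and 0.154), Hspb1 for Peg10 (0.136 and 0.153), Klhl13 for Peg3 (0.12 and 0.155) and Tmsb4x for Mest (0.084 and 0.076). Krt18 was the second gene for Peg10 (0.190 and 0.091), and the imprinted antisense RNA Kcnq1ot1 was among the leading 3 for Igf2r, Peg3, Meg3 and Rian.

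A list of 53 other imprinted genes in the table was read by the same rule. Between the libraries, 6 of 36 past the minimum were higher in the positive library (Plagl1, Magel2, Ndn, Usp29, Zrsr1 and Sfmbt2) and 0 lower, beside the 8.13% and 0.822% of all genes. With TMM or median-of-ratios scaling, 2 were higher (Plagl1 and Magel2) and 2 lower (Phlda2 and Zdbf2), beside 5.63% and 2.48% of all genes under TMM. Magel2, a neighbour of Ndn, was at 3.12 and 0.320 CPM, and the zinc finger gene Plagl1 at 17.6 and 3.96 CPM. In Zscan4-high cells 2 of 36 were higher, Magel2 (9.0 against 1.23 CPM) and Zrsr1 (25.8 against 12.1 CPM), and 3 lower (Ddc, Ppp1r9a and Zdbf2), beside 7.46% and 2.91% of all genes.

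In Gata6/Dab2-high cells of the positive library, 2 of 36 were higher and 6 lower, and in those of the negative library 3 of 35 were higher and 4 lower. Of all genes, 5.38% were higher and 7.93% lower in the positive library and 6.77% and 4.69% in the negative library, so the counts of higher genes were near the background. Sfmbt2, a Polycomb-related gene of extraembryonic tissue, was at 49.0 against 13.4 CPM and at 35.8 against 5.03 CPM. Airn, the antisense RNA of Igf2r, was at 2.12 against 0.442 CPM and at 2.61 against 0.115 CPM, while Igf2r itself was within 1.12-fold. The cell cycle inhibitor Cdkn1c was at 10.05 against 40.3 CPM and at 15.4 against 52.6 CPM, and Nnat and Usp29 were also lower in both libraries. Plagl1, Ddc (not under TMM scaling) and Magel2 were lower in the positive library by the rule, and H13 was higher and Phlda2 lower in the negative library. The median log2 ratio of the list was -0.37 and -0.06, beside -0.10 and 0.02 for all genes.

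Of 15 genes that set, protect or remove DNA methylation or bind at imprints, 2 were higher and 5 lower by 2-fold in Gata6/Dab2-high cells of the positive library, beside 5.38% and 7.93% of all genes. In those of the negative library 3 were higher and 3 lower, beside 6.77% and 4.69%. The de novo methyltransferase Dnmt3b was at 326 CPM in high and 32.1 CPM in zero cells of the positive library (10.2-fold) and at 315 and 31.7 CPM in the negative library (9.93-fold). Its cofactor Dnmt3l was at 332 and 67.6 CPM and at 251 and 76.9 CPM. Zfp57, whose protein protects imprints, was at 48.9 against 187 CPM and at 93.6 against 193 CPM, and Tet1, a methylcytosine oxidase, at 71.7 against 218 CPM and at 142 against 366 CPM. Zfp42 was also lower in both, Trim28 and Dppa3 were lower in the positive library, and Dnmt3a was higher in the negative library. Under TMM scaling Trim28 was no longer called in the positive library and Dnmt3a was called higher there.

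In Zscan4-high cells, Dppa3, which shields maternal methylation in the early embryo, was at 95 against 40.6 CPM, and Tet1, Tet2 and Zfp42 were lower, which is 1 higher and 3 lower of the 15 beside 7.46% and 2.91% of all genes; Tet1 was not called under TMM scaling. Between the libraries Dppa3 was the 1 gene of the 15 past 2-fold, at 51.3 CPM in the positive and 8.23 CPM in the negative library, beside 8.13% of all genes higher; under TMM scaling Tet1 was also past the rule, as lower. The counts show transcripts of these genes and give no methylation level at any imprinted gene.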

How the data were processed

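The values are whole-number counts of each gene in each cell, as the authors deposited them, and are taken as UMIs from the 16-base cell barcodes, since no label says how molecules were counted. The submitters' processing notes name FastQC 0.11.2, Trim Galore 0.6.4, STAR 2.7.6a and mm10, with no role or order; cell calling is not given in the sources used here. Cells with at least 1000 UMIs, 500 genes and at most 20% mitochondrial UMIs were kept. No doublet caller was used, so doublets remain, and an alternative left out cells above 2 times the median UMIs. Counts were summed, scaled to CPM and compared as log2 ratios of CPM + 1. CPM intervals are exact Poisson, ratio intervals exact conditional and shares exact binomial (Clopper-Pearson).

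No test was run, since each group is 1 library. Positions are from GENCODE vM21 (GRCm38), matched by gene ID for 52081 of 55414 IDs. Likeness was the Pearson correlation of log1p thinned UMIs, and the 3 leading genes per member were kept, with other imprinted and maintenance genes named where past 2-fold. The members and lists were chosen with earlier results of these data known. Alternatives changed scaling (TMM from edgeR 4.0.16, median of ratios), filters, cuts, thinning and pseudocount. Steps were tested on simulated data. Versions were R 4.3.3, scipy 1.17.1, pandas 2.3.3, numpy 2.4.6, matplotlib 3.10.9 and Python 3.11.15.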

Additional observations from a re-analysis of the deposited data

Results flagged for a closer look

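Meg3 went opposite ways with Gata6/Dab2 in the libraries. Its log2 ratio of CPM + 1 between Gata6/Dab2-high and zero cells was -0.1076 in the positive library (66.7 against 72.0 CPM) and 0.2163 in the negative library (107 against 92.1 CPM), with counting intervals that did not reach a ratio of 1 in either. Rian (ratios 0.881 and 1.09), Mirg (0.834 and 1.31) and Peg10 (0.958 and 1.27) also lay below 1 in the positive and above 1 in the negative library, and Snrpn the other way (1.04 and 0.884), with an interval that reached 1 in at least 1 library. The difference between the libraries was not tested, since each is 1 sample. With classes taken from cells thinned to 5000 UMIs, the positive-library value of Meg3 was 0.07. The median log2 ratio of all genes was -0.10 in the positive and 0.02 in the negative library. The positive-library value of Meg3 was thus close to that of all genes, whose median TMM scaling moved to -0.02.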

How the results depend on the processing

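With the ratio threshold at 1.5, the members called were 2 between the libraries (H19 and Peg3), and by Gata6/Dab2 2 (positive library) and 2 (negative library), H19 and Mest in each. Of all genes, 2810 were then higher and 645 lower of 13869 between the libraries, 1598 and 2611 of 14014 by Gata6/Dab2 in the positive and 1862 and 1454 of 13126 in the negative library, so these counts were near the background. By Gata6/Dab2 in the positive library the count was also 2, with Mest added, under the mean of each cell's CPM, a pseudocount of 0.1 CPM, without cells above 2 times the median UMIs and with classes from 5000 UMIs; Mest was then past the rule that it just missed, while the genes lower under these 4 settings numbered 1245 of 14038, 1649 of 14014, 1168 of 13998 and 1268 of 14016, against 1112 of 14014. In the negative library it was 2 with no minimum CPM (Igf2 added) and with classes from 5000 UMIs (Mest added), where 940 genes were higher and 654 lower of 55415, and 1086 and 751 of 13160. Between the libraries it was 0 among cells with no UMI of Zscan4, Gata6, Dab2, Krt8 or Krt18, where H19 had a log2 ratio of CPM + 1 of 0.88 at a CPM ratio of 2.17. The number of members detected in a larger share of positive-library cells was 4 without thinning, and the same count over all genes is not given.

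Over the alternatives H19 kept its direction between the libraries (log2 ratio 0.88 to 1.44) and by Gata6/Dab2 (2.04 to 2.7 in the positive, 2.89 to 3.83 in the negative library), and Mest by Gata6/Dab2 (-1.07 to -0.81 and -1.10 to -0.54). Of 650 alternative log2 ratios in the 4 comparisons, 16 had the other sign, in 7 of 40 values. They were Igf2r and Snrpn between the libraries, H19 by Zscan4, and Igf2, Peg10, Meg3 and Snrpn by Gata6/Dab2 in the positive library. By keratin, Igf2r, Rian, Mirg, Snrpn and Mest in the positive library and Meg3 in the negative library had the other sign under at least 1 alternative. The cause was not tested. No paired analysis was possible because a group holds a single library. Depth limits Mirg and Igf2, which had few UMIs, and a thinned cell without a UMI is not a cell without the transcript. The removal of keratin-high cells, the keratin classes, the restriction to cells without these marker UMIs and the scaling alternatives of the other gene lists were added after the data were seen.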
